A study of Mus musculus with 15 samples.

Results

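Annexins are proteins that bind the phospholipids of membranes when calcium is present, and they share a core of repeated calcium-binding domains behind a variable N-terminal tail. They are recruited to torn plasma membranes, to sites of vesicle traffic and to phosphatidylserine that dying cells expose, and several have extracellular roles in inflammation and fibrinolysis. In liver several of them are known from bile duct, immune and matrix-producing cells. The 9 annexin genes described here, Anxa1, Anxa2, Anxa3, Anxa4, Anxa5, Anxa6, Anxa7, Anxa11 and Anxa13, were taken by symbol from 24499 genes counted in each of 15 mouse liver libraries. All 9 passed the filter on low counts and were among the 14778 genes tested.

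The samples were livers of adult male C57BL/6 mice, profiled by mRNA sequencing in a model of acute ethanol injury on top of chronic liver damage. Carbon tetrachloride (CCl4), a hepatotoxin that causes fibrosis on repeated dosing, had been injected into the peritoneum at 0.2 ml/kg 2 times a week over 6 weeks. The control arm is written OO, which the labels do not spell out. Ethanol, up to 25 g/kg daily for 3 weeks, went in through a gastric tube, and the labels of every ethanol group also carry HFD where their controls carry chow, so ethanol and diet cannot be told apart. Day 0 libraries had the first treatment alone: OO (libraries 1 and 2) and CCl4 (libraries 3 and 4). The day 20 libraries had OO or CCl4 again in the second phase, CCl4 at 0.5 of its dose: OO with chow (library 12), OO with ethanol (13, 14 and 15), CCl4 with chow (16 and 17) and CCl4 with ethanol (18, 19 and 20). At day 23, OO with chow (library 5) and OO with ethanol (library 6) had 1 library each, and their labels name no second OO treatment. The labels also give these libraries another study number than the day 20 libraries. The OO chow control used below, libraries 5 and 12, thus joins both study numbers. Between them day, study number and second treatment cannot be told apart. The labels do not say that libraries of a group came from separate animals, so p-values measure only the spread between these libraries.

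Gene counts ran from 10347844 to 28843258 per library. Summed hepatocyte markers, Alb and Cyp2e1 among them, stood at 67120 to 100500 CPM (gene counts scaled to a common library size) in every library. Libraries 6 and 12 held exocrine pancreas transcripts at 158 and 164 CPM over 10 marker genes, where the others held 5.46 to 14.0 CPM, and 3 to 8 of those genes were at 0 in each of the others. Library 12 is therefore set beside library 5 with equal weight as the OO chow control, and the annexin and partner calls that change without it are named where they occur. Levels below are CPM after TMM scaling, and levels compared between genes are CPM per kilobase of exon. Changes are log2 values ± standard error from edgeR's quasi-likelihood test on counts, with p-values adjusted by Benjamini and Hochberg over all genes tested. "Rose" and "fell" are used only where that p was under 0.05.

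In OO liver at day 0 Anxa6 and Anxa5 led the family in CPM per kilobase. The order and the shares below depend on the exon length used, which merges the exons of all annotated transcripts of a gene. It was 5991 bases for Anxa7 and 1777 for Anxa5. In CPM alone Anxa7, at 97.6, lay above Anxa5, at 74.8. Anxa6, which carries more annexin repeats than the others and acts in endosome and cholesterol traffic, stood at 44.2 CPM per kilobase (mean, n = 2). Anxa5, the phosphatidylserine-binding annexin widely used to stain apoptotic cells, stood at 42.1 CPM per kilobase, and its range across libraries overlapped that of Anxa6. Anxa7, first described as a protein that fuses secretory granules, followed at 16.3 CPM per kilobase, and Anxa4, an annexin of epithelial and secretory cells, at 9.56. Anxa2, Anxa11, Anxa3 and Anxa1 lay between 1.72 and 3.04 with libraries that overlapped in part, and Anxa13, an epithelial annexin of gut and kidney, was last at 0.683. The order differed in later groups. Anxa5 stood above Anxa6 in the CCl4 groups of day 20 and also in the OO chow library of day 20, where they made up 35.5% and 33.3% of the summed family level and Anxa2 5.95%. With CCl4 and ethanol Anxa5 led at 102 CPM per kilobase over Anxa6 at 57.6, and Anxa2 had moved from the fifth place to the third at 25.6, although its libraries overlapped those of Anxa7 at 17.8. Anxa2 made up 2.51% of the summed family level in OO at day 0 and 10.4% with CCl4 and ethanol, while the share of Anxa6 was 36.3% and 24.1%. The summed level was 119 and 124 CPM per kilobase in the libraries of OO at day 0, and between 216 and 270 with CCl4 and ethanol.

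**Figure D1:**
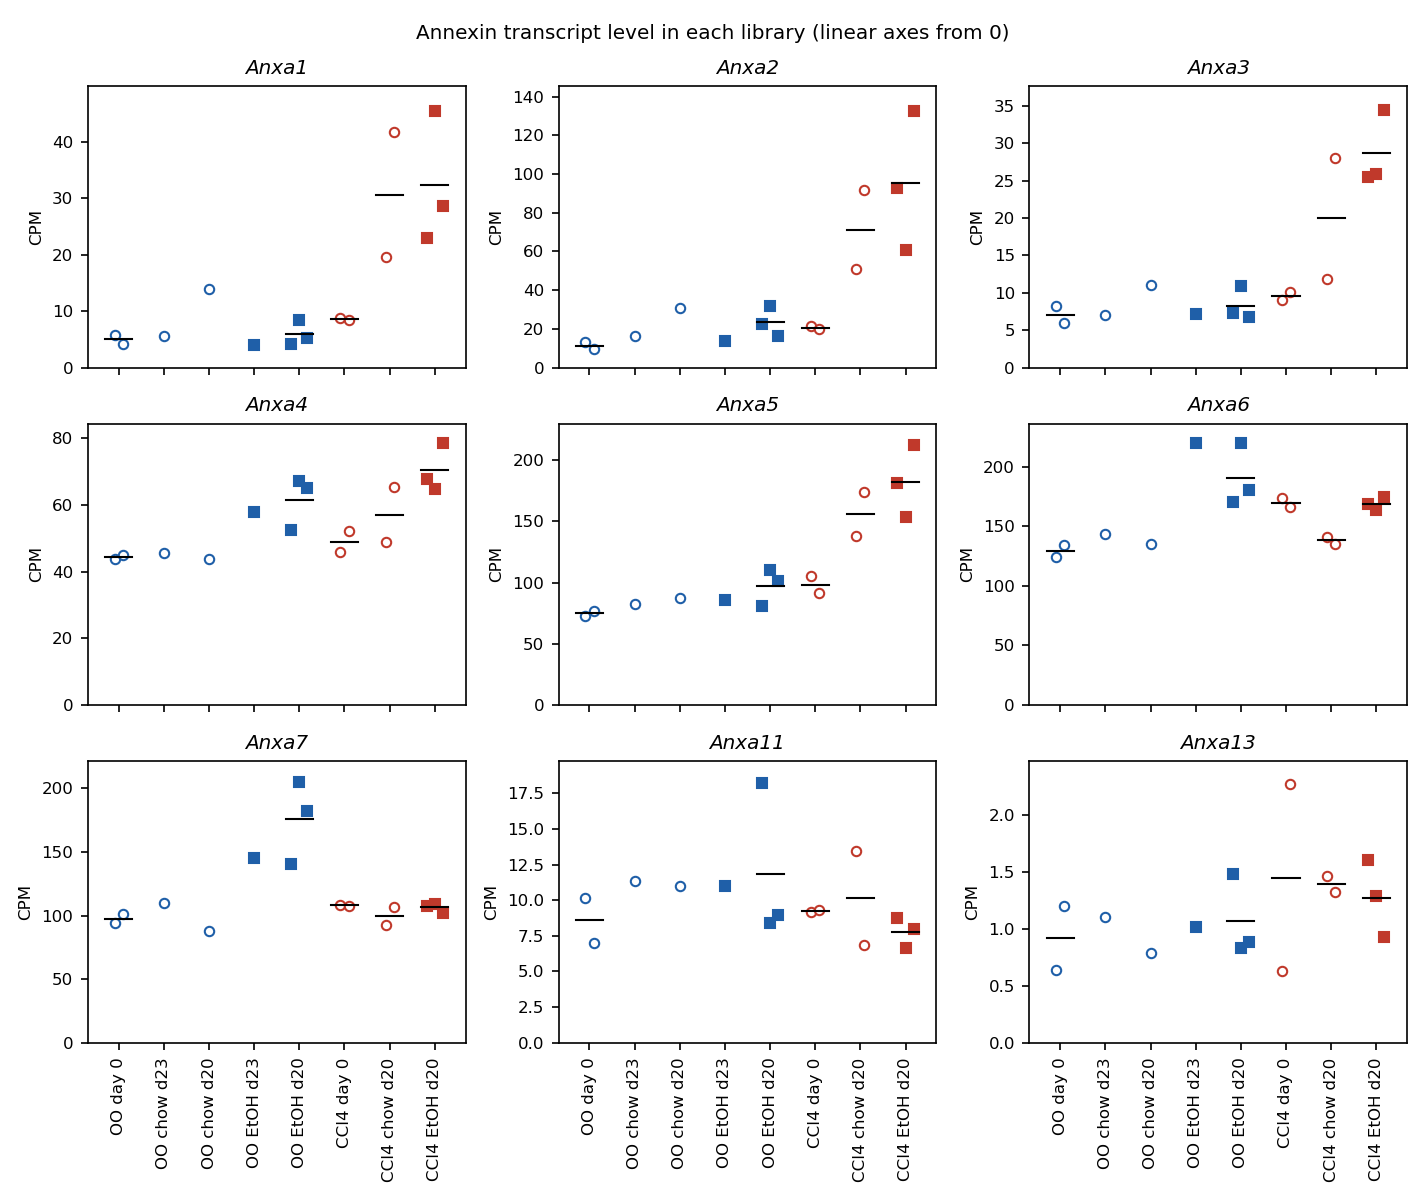
Level of each annexin (vertical axes, TMM-scaled CPM, linear from 0) in the 15 libraries, by group (horizontal axes). Blue is OO and red CCl4, filled squares are ethanol and open circles chow or day 0, and black lines are means of groups with 2 or 3 libraries. Anxa1, Anxa2, Anxa3 and Anxa5 are high in the CCl4 groups of day 20, and Anxa7 is high in the OO ethanol groups.

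The comparison of CCl4 with OO under ethanol asks what earlier and continued CCl4 adds to ethanol, and it held the clearest annexin pattern. Anxa1, Anxa2, Anxa3 and Anxa5 rose and Anxa7 fell, which is 5 of 9 members called against a background of 23.7% of all genes tested. The median change of the 9 was 0.31 and that of all genes -0.04. Of the 9, 4 had every CCl4 library above every OO library and 1 had every one below, and over all genes tested these shares were 18.8% and 17.4%. In this comparison none of the 5 calls was lost under any alternative setting or with any library left out. The names of the deposited tables give a sequencing lane, and no lane held libraries of both groups. Lane and CCl4 therefore cannot be told apart here, and no alternative setting could separate them.

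Anxa2 forms a complex with S100a10 at the cell surface that binds plasminogen and its activator. Its level was 92.7, 60.9 and 132 CPM in the CCl4 ethanol libraries and 22.7, 32.0 and 16.1 CPM in the OO ethanol libraries. Every CCl4 library lay above every OO library. The change was 2.00 ± 0.32, a 4.01-fold rise with an adjusted p of 0.00131 (edgeR). The gene lies on chromosome 9 at positions 69453620 to 69491795 of mm10, on the forward strand.

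Anxa1 is a glucocorticoid-regulated inhibitor of neutrophil recruitment that signals through formyl peptide receptors. Its level was 23.0, 45.4 and 28.6 CPM with CCl4 and ethanol and 4.16, 8.35 and 5.31 CPM with OO and ethanol, without overlap. The change of 2.41 ± 0.35 was a 5.33-fold rise, the largest among the 9 in this comparison, with an adjusted p of 0.000748 (edgeR). The CCl4 library with the most Anxa1, library 19, was the one with the least Anxa2.

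Anxa3, an annexin abundant in neutrophils, stood at 25.5, 25.9 and 34.4 CPM with CCl4 and ethanol and at 7.23, 10.9 and 6.73 CPM with OO and ethanol. These groups did not overlap, and the change was 1.77 ± 0.30, a 3.41-fold rise (adjusted p = 0.00174, edgeR). Anxa5 stood at 181, 153 and 212 CPM against 80.8, 110 and 101 CPM. Its rise of 0.90 ± 0.16, or 1.87-fold, was smaller on the log2 scale but added more CPM than any other member, and the groups again did not overlap (adjusted p = 0.00205, edgeR).

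Anxa7 moved the other way. Its level was 108, 109 and 102 CPM with CCl4 and ethanol and 141, 205 and 182 CPM with OO and ethanol, and every CCl4 library lay below every OO library. The change was -0.73 ± 0.14 (adjusted p = 0.00297, edgeR). The CCl4 level was close to that of OO at day 0, 97.6 ± 4.54 CPM (SD, n = 2), while the OO ethanol level was 176 ± 32.6 CPM (SD, n = 3). The gene lies on chromosome 14 at positions 20455260 to 20480133 of mm10, on the reverse strand.

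The remaining members were not called in this comparison, and their libraries overlapped. Anxa4 differed by 0.19 ± 0.14, with a 95% interval from -0.12 to 0.50, and Anxa6 by -0.17 ± 0.12, from -0.43 to 0.08. Anxa11, which tethers RNA granules to lysosomes in neurons, differed by -0.59 ± 0.32. Its OO ethanol libraries were uneven, 18.2, 8.40 and 8.94 CPM. Anxa13 had only 7 to 38 counts in a library and is annotated by GENCODE as a processed transcript, so a change of its size could not be resolved at this depth.

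**Figure D2:**
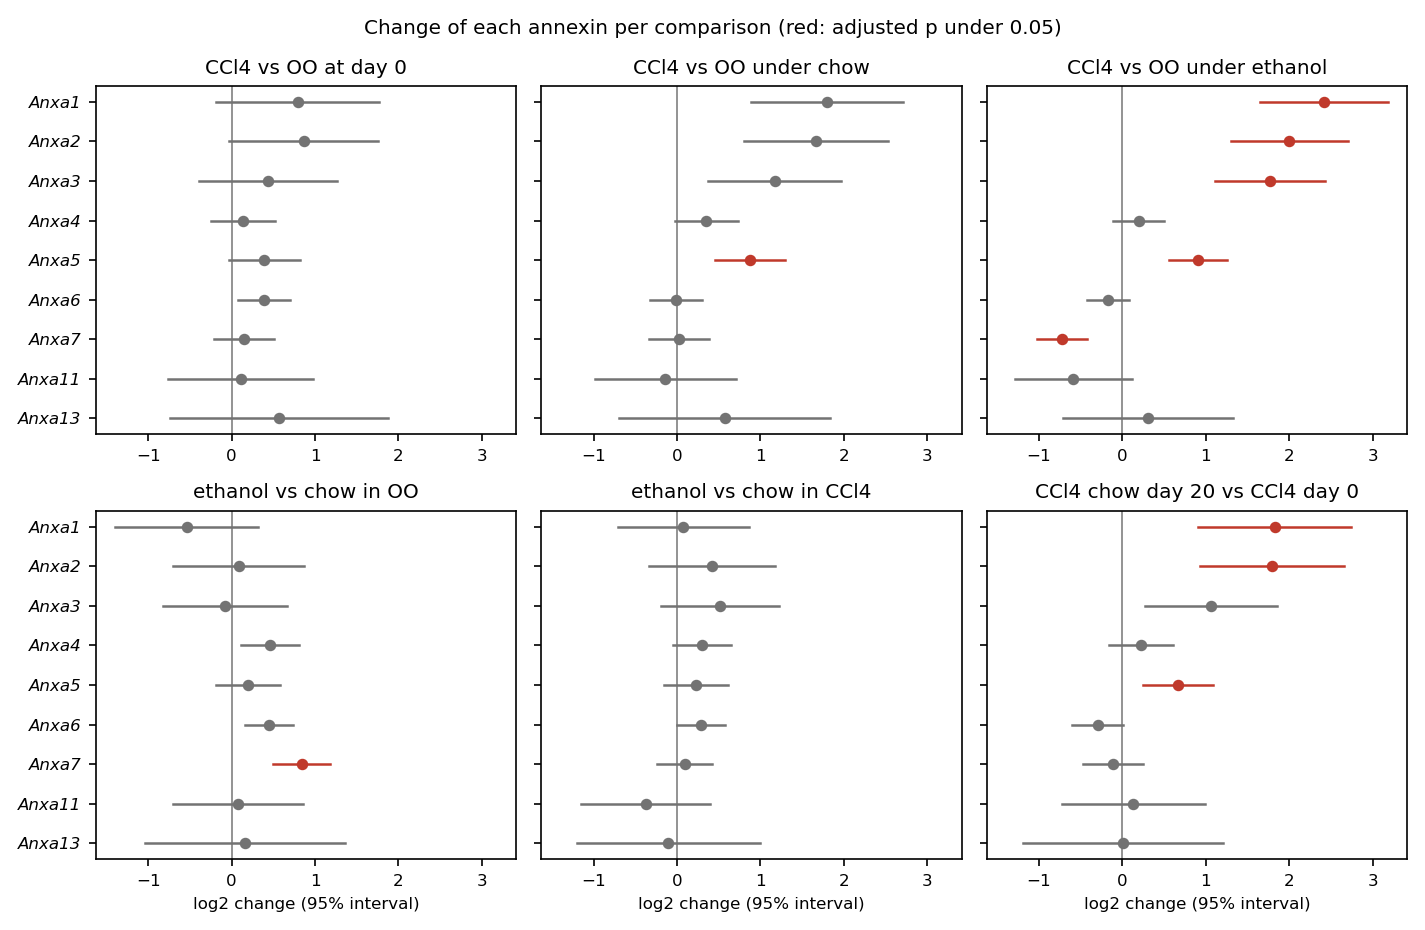
Log2 change of each annexin (horizontal axes, with 95% intervals from the edgeR fit) in 6 comparisons. Red marks an adjusted p under 0.05. Under ethanol Anxa1, Anxa2, Anxa3 and Anxa5 lie to the right of 0 and Anxa7 to the left. Under chow Anxa1 (1.80 against 2.41) and Anxa2 (1.67 against 2.00) lie less far to the right, with wider intervals and no call.

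The promoters of Anxa2 and Anxa5, which rose, and Anxa7, which fell, are shown so that members moving in opposite directions can be read side by side. They are RefSeq windows of build GRCm38.p6, read in the direction of the gene, from 250 bases before the RefSeq start and stopping where GENCODE places the gene's first base. Capitals mark matches to the searched letters on either strand.
Anxa2, chr9:69453433-69453619, forward strand: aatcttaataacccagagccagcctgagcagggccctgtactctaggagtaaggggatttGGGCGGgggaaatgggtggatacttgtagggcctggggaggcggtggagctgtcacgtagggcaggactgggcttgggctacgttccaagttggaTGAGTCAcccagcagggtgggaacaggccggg
Anxa5, chr3:36475895-36476137, reverse strand: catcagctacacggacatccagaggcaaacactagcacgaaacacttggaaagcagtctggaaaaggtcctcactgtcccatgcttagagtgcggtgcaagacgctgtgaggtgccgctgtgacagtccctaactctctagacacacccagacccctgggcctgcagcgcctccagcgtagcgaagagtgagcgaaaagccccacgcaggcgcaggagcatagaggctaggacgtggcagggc
Anxa7, chr14:20480134-20480383, reverse strand: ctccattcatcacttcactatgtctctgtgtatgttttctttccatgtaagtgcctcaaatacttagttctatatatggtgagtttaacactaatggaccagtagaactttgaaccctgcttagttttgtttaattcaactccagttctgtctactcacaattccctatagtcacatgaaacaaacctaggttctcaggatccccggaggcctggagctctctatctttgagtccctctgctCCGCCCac

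The searched letters were the AP-1 motif TGANTCA, the TEAD motif GGAATG, the GC box GGGCGG, the TATA box TATAAA and the CCAAT box CCAAT, on both strands of the 250 bases before each RefSeq start. Of 32851 such windows, 6.75% held the AP-1 letters, 12.6% the TEAD letters, 32.7% a GC box, 12.4% a TATA box and 33.8% a CCAAT box. Windows were given for 6 of the 9 members. The Anxa2 window held the AP-1 letters 95 to 89 bases before the RefSeq start, and it was the only member window of the 6 to do so. It also held GC boxes 190 to 185, 48 to 43 and 24 to 19 bases before that start and a TATA box 17 to 12 bases before it, and only the first of these GC boxes lies in the printed bases. The Anxa7 window held a GC box 8 to 3 bases before its start, on the opposite strand, and the Anxa5 window held none of the 5. A match describes the letters in this window only.

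The same arms compared under chow gave 1 called member of 9, against a background of 2.19% of genes, with OO chow libraries 5 and 12 as the control. Anxa5 rose by 0.88 ± 0.19 (1.84-fold, adjusted p = 0.0411, edgeR), from 82.6 and 87.6 CPM to 138 and 174 CPM. Anxa1 stood at 5.59 and 13.9 CPM with OO and at 19.5 and 41.7 CPM with CCl4, a difference of 1.80 ± 0.42 that missed the threshold (adjusted p = 0.0507, edgeR). Without library 12 Anxa1 passed, with a change of 2.51. Anxa2 stood at 16.3 and 30.8 CPM against 50.9 and 91.6 CPM, a difference of 1.67 ± 0.39 (adjusted p = 0.0529, edgeR). For 6 of the 9 members, these 3 among them, the CCl4 libraries lay above the OO libraries without overlap and for none below, where 22.2% of all genes lay above and 20.6% below. Anxa1 and Anxa2 each varied more than 1.5 times inside either arm, while the OO libraries of Anxa5 were close together. Anxa3 differed by 1.17 ± 0.36 (adjusted p = 0.131, edgeR), and the higher of its CCl4 libraries, library 17 with 28.0 CPM, was more than 2 times library 16 with 11.8 CPM. DESeq2 did call Anxa1, Anxa2 and Anxa3 (adjusted p = 0.00109, 0.000918 and 0.0453, DESeq2). So did edgeR with only the libraries compared, and without library 16, where the changes were 2.24, 2.03 and 1.66.

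The Anxa5 call under chow was not stable, and without library 12 it was lost (0.97). Its change was 0.92 against library 5 alone (adjusted p = 0.0755) and 0.83 against library 12 alone (adjusted p = 0.358), and it fell to 0.72 without library 17 (adjusted p = 0.249) and read 1.03 without library 16 (adjusted p = 0.0503), all from edgeR. Only libraries 17 and 5 shared a sequencing lane across these arms. Within that lane the log2 ratios were 2.87 for Anxa1, 2.48 for Anxa2, 1.96 for Anxa3 and 1.07 for Anxa5.

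Against the same OO chow control, CCl4 with ethanol called 5 of 9 members, all higher, where the background was 10.8% of genes. Anxa2 rose by 2.09 ± 0.38, Anxa1 by 1.87 ± 0.40, Anxa3 by 1.69 ± 0.34, Anxa5 by 1.10 ± 0.18 and Anxa4 by 0.65 ± 0.16. Anxa4 went from 43.7 and 45.7 CPM to 67.8, 64.8 and 78.5 CPM, without overlap (adjusted p = 0.0245, edgeR). Over the 9, 6 had all CCl4 ethanol libraries above both OO chow libraries and 1 had all below, where 21.6% and 22.1% of all genes did. Anxa5 stayed called with either control library alone. Against library 12 alone Anxa1, Anxa2, Anxa3 and Anxa4 missed the threshold, with changes of 1.22, 1.63, 1.37 and 0.69 and adjusted p of 0.227, 0.103, 0.131 and 0.11 (edgeR). The Anxa4 call was also lost against library 5 alone (0.62, adjusted p = 0.101), and when library 12 (0.68, adjusted p = 0.0824), library 18 (0.68, adjusted p = 0.057) or library 20 (0.57, adjusted p = 0.0787) was left out of the edgeR fit. Within the lane shared by libraries 19 and 12 the log2 ratios of these 4 genes were 1.70, 0.98, 1.22 and 0.57, and that of Anxa5 was 0.81.

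Ethanol was compared with chow in each arm, and since the ethanol labels also carry HFD, the differences cannot be assigned to ethanol itself. In OO liver the comparison called 1 of 9 members, Anxa7, against a background of 4.93% of genes. Anxa7 rose by 0.84 ± 0.15 (1.79-fold, adjusted p = 0.0137, edgeR), from 110 and 88.0 CPM with chow to 141, 205 and 182 CPM with ethanol. Anxa6 went from 143 and 135 CPM to 170, 220 and 180 CPM and Anxa4 from 45.7 and 43.7 CPM to 52.3, 67.2 and 65.0 CPM. In these genes and Anxa7, 3 of the 9, every ethanol library lay above both chow libraries, and in none did every one lie below, where 15.5% of all genes lay above and 16.6% below. Anxa6 and Anxa4 did not pass, with differences of 0.45 ± 0.13 and 0.46 ± 0.16 (adjusted p = 0.0733 and 0.125, edgeR). Without library 12 the Anxa7 change was 0.70 (adjusted p = 0.169, edgeR) and in a fit of only the libraries compared 0.83 (adjusted p = 0.258, edgeR), and no lane held both of these groups. Anxa1, Anxa2, Anxa3 and Anxa5 overlapped between ethanol and chow in OO liver, with differences from -0.54 to 0.20.

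In the CCl4 arm ethanol called none of the 9, against a background of 1.27% of genes. 1 member, Anxa6, had an unadjusted p under 0.05 in edgeR, and DESeq2 and limma-voom also called none. Anxa6 stood at 141 and 135 CPM with chow and at 168, 164 and 174 CPM with ethanol, a difference of 0.29 ± 0.13 (adjusted p = 0.412, edgeR). It was the 1 member of 9 whose ethanol libraries all lay above the chow libraries, and for none did all lie below, where the shares of all genes were 13.1% and 13.5%. Anxa7 stood at 92.8 and 107 CPM with chow and at 108, 109 and 102 CPM with ethanol, so its groups overlapped. Anxa1, already high with CCl4 and chow, differed by 0.08 ± 0.36, with a 95% interval from -0.71 to 0.86.

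The interaction tests whether the difference between ethanol, with its diet, and chow was unlike in the arms. It called none of the 9, where the background was 0.142% of genes. Only Anxa7 had an unadjusted p under 0.05, with an interaction of -0.75 ± 0.21 and an adjusted p of 0.302 (edgeR), and DESeq2 and limma-voom called none either. The differing calls for Anxa7 in the OO and CCl4 arms are therefore not shown to be a difference between the arms. For Anxa1, Anxa2 and Anxa3 the interaction was 0.62 ± 0.53, 0.33 ± 0.50 and 0.60 ± 0.47.

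Before the second phase, CCl4 and OO livers of day 0 gave no called annexin of 9, against a background of 2.06% of genes. The median difference of the members was 0.39, and all 9 were above 0, while the median of all genes was 0.01. Anxa6 alone had an unadjusted p under 0.05, at 174 and 166 CPM with CCl4 and 124 and 135 CPM with OO (0.39 ± 0.14, adjusted p = 0.183, edgeR). Anxa2 stood at 21.4 and 19.8 CPM against 13.0 and 9.66 CPM (0.86 ± 0.41, adjusted p = 0.318, edgeR). In 7 of the 9 both CCl4 libraries lay above both OO libraries and in none below, where 30.5% of all genes lay above and 29% below. DESeq2 and limma-voom called none. A fit of only these 4 libraries called 4, Anxa1, Anxa2, Anxa5 and Anxa6, with adjusted p of 0.0381, 0.00737, 0.033 and 0.0255 (edgeR).

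From day 0 to day 20 in the CCl4 chow arm, Anxa1, Anxa2 and Anxa5 rose, 3 of 9 against a background of 11.5% of genes. Anxa1 went from 8.77 and 8.50 CPM to 19.5 and 41.7 CPM (1.83 ± 0.42, adjusted p = 0.0191, edgeR). Anxa2 went from 21.4 and 19.8 CPM to 50.9 and 91.6 CPM (1.79 ± 0.40, adjusted p = 0.0162, edgeR), and Anxa5 from 105 and 91.1 CPM to 138 and 174 CPM (0.67 ± 0.19, adjusted p = 0.0456, edgeR). Of the 9 members 4 lay above without overlap and 2 below, where 30.9% of all genes lay above and 29.7% below. Without library 17 the changes were 1.16, 1.29 and 0.48 (adjusted p = 0.129, 0.103 and 0.207), and all 3 were also lost without library 3 or library 4. Without library 16 Anxa5 was lost too (0.83, adjusted p = 0.0588), and Anxa1 and Anxa2 kept their calls. Without library 3 the changes were 1.85, 1.85 and 0.78, and without library 4 they were 1.81, 1.74 and 0.57.

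In the OO chow arm the later libraries gave no called annexin against day 0, where the background was 0.379% of genes. Anxa2 alone had an unadjusted p under 0.05, at 16.3 and 30.8 CPM later and 13.0 and 9.66 CPM at day 0 (0.99 ± 0.41, adjusted p = 0.314, edgeR). In 4 of the 9 both later libraries lay above both of day 0 and in none below, where 25.9% of all genes lay above and 24.2% below. DESeq2 and limma-voom called none, and a fit of only these 4 libraries called Anxa2 (adjusted p = 0.0133, edgeR). The upper value is that of library 12, whose Anxa1 level of 13.9 CPM also lay above the 3.96 to 8.35 CPM of all other OO libraries.

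Across the 15 libraries the members fell into sets that varied together, given as a description since the libraries share treatments and lanes. Pearson's r of log2 CPM ran from 0.88 to 0.95 among Anxa1, Anxa2, Anxa3 and Anxa5. Anxa6 and Anxa7 had an r of 0.78 with each other and from -0.38 to 0.12 with those 4. Anxa4 lay between, with r of 0.76 to Anxa5 and 0.56 to Anxa6. Anxa11 had r from -0.48 to -0.28 with the first set, and Anxa13 from 0.21 to 0.23.

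**Figure D3:**
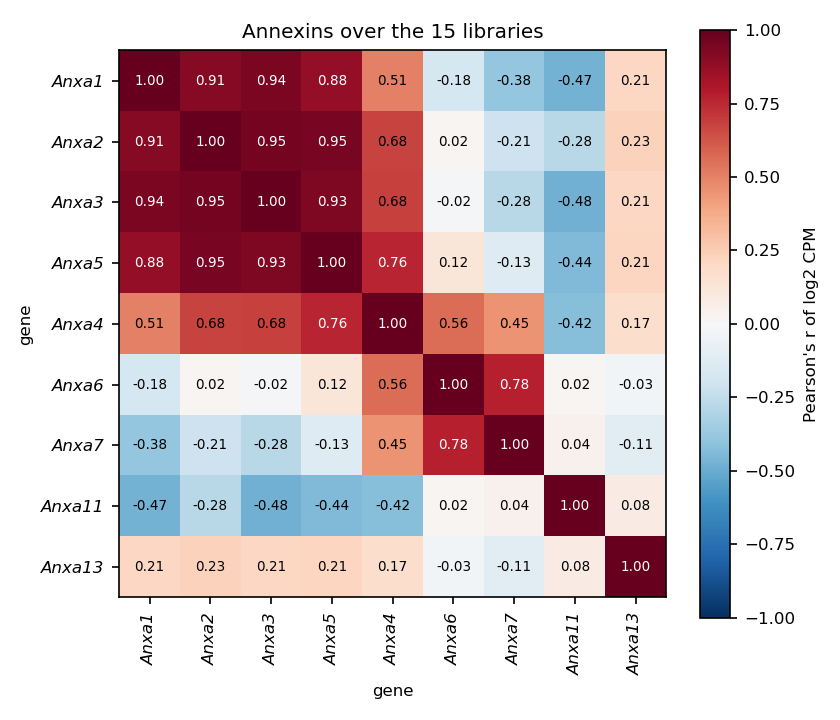
Pearson's r of log2 CPM between annexins (both axes list the 9 genes) over the 15 libraries. Colour and number give r, from -1 in blue to 1 in red. Anxa1, Anxa2, Anxa3 and Anxa5 form a block of 0.88 to 0.95, and Anxa6 with Anxa7 reach 0.78.

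Among 10080 other genes with a mean of at least 5 CPM, the nearest to Anxa2 were Pkm, a glycolytic enzyme (r = 0.97), Rab31, Serpinh1, a collagen chaperone, Plat, the tissue plasminogen activator, and Rhoc (0.95 to 0.96). Nearest to Anxa5 were Sgce, Myl12b, a myosin light chain, the histone gene Hist2h2bb, and Smc2 and Ect2, which act in chromosome condensation and cytokinesis (0.95 to 0.96). Nearest to Anxa3 were Serpinb6a, Slc25a24, Plat, Rab31 and Cerk, a ceramide kinase (0.96). Plat and Rab31 stood in the lists of both Anxa2 and Anxa3.

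Markers of several non-hepatocyte cells were high in the same libraries. The called counts in this paragraph stand against 23.7% of all genes called. In CCl4 against OO under ethanol, the summed level of 7 stellate cell and fibroblast markers was 823 to 1187 against 293 to 486 CPM, with 4 of 7 higher and none lower. That of 4 markers of lipid-associated macrophages was 711 to 1074 against 52.7 to 92.7 CPM, with 4 of 4 higher. Cholangiocyte markers stood at 391 to 602 against 49.5 to 82.8 CPM with 3 of 7 higher, macrophage markers at 1501 to 1798 against 633 to 801 CPM with 5 of 7 higher and 1 lower, and neutrophil markers at 62.7 to 147 against 19.1 to 31.8 CPM with 6 of 7 higher. Spp1 is in both the cholangiocyte and the lipid-associated macrophage list, and 1 cholangiocyte and 1 neutrophil marker was at 0 in library 15. Sinusoidal endothelial markers, 332 to 397 against 345 to 408 CPM, overlapped.

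Under chow the stellate and neutrophil sums were 1099 to 1567 and 196 to 223 CPM with CCl4, and 357 to 610 and 27.6 to 84.2 CPM with OO. Lipid-associated macrophage sums, 169 to 502 against 79.6 to 157 CPM, did not overlap either. Macrophage sums, 1250 to 1725 against 1019 to 1576 CPM, did overlap, as did cholangiocyte sums, 101 to 312 against 78.3 to 111 CPM. No marker of those last lists was called. With CCl4 at day 0 the stellate and neutrophil sums were 559 to 629 and 10.2 to 17.4 CPM. From there to CCl4 chow at day 20, all 7 neutrophil and all 7 macrophage markers rose, where 11.5% of all genes were called. The macrophage sum had been 440 to 457 CPM with CCl4 at day 0, below the 675 to 735 CPM of OO at day 0. It was also higher later in OO chow, where 2 of 7 macrophage markers rose against 0.379% of all genes. The neutrophil sum of OO at day 0, 15.4 to 34.5 CPM, overlapped that of OO chow, and none of its 7 markers was called. Over the 15 libraries the stellate sum on the log2 scale had r of 0.93 with Anxa1, 0.92 with Anxa2, 0.90 with Anxa3 and 0.89 with Anxa5, and -0.14 with Anxa6 and -0.39 with Anxa7. The lipid-associated macrophage sum had r of 0.88, 0.83, 0.92 and 0.80 with Anxa1, Anxa2, Anxa3 and Anxa5, the cholangiocyte sum 0.80, 0.77, 0.87 and 0.73, the neutrophil sum 0.79, 0.82, 0.74 and 0.74, and the macrophage sum 0.78, 0.78, 0.76 and 0.69. The part of these markers in the annexin results was not tested. In bulk tissue, more cells of a type and more RNA per cell cannot be told apart.

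S100 proteins pair with annexins through the annexin tail. Under ethanol 2 of the 5 tested S100 partners rose with CCl4, where 23.7% of all genes were called, S100a6 by 1.63 ± 0.39 and S100a4 by 1.99 ± 0.53 (adjusted p = 0.0121 and 0.0187, edgeR). The S100a4 call was lost without library 15, 18 or 20, with changes of 1.89, 1.87 and 1.91 (adjusted p = 0.0663, 0.062 and 0.051). S100a10, the obligate partner of Anxa2 in the plasminogen-binding complex, was named after its values were seen. It stood at 121, 123 and 107 CPM with CCl4 and ethanol and at 83.9, 196 and 174 CPM with OO and ethanol, with overlap (-0.37 ± 0.26, adjusted p = 0.337, edgeR), and without library 13 it was lower with CCl4 (-0.66, adjusted p = 0.0121). Between ethanol and chow in OO liver S100a10 differed by 1.12 ± 0.30 and missed the threshold (adjusted p = 0.0561, edgeR), where Anxa2 differed by 0.08 ± 0.36. Without library 13 that difference was 1.41 and passed (adjusted p = 0.00185). S100a6 also rose in CCl4 with ethanol against OO chow (1.93 ± 0.46, 1 of 5 where 10.8% of all genes were called), a call lost without library 5 (1.55, adjusted p = 0.204) or library 20 (1.57, adjusted p = 0.0623). S100a4 rose in CCl4 chow from day 0 to day 20 (2.56 ± 0.63, 1 of 5 where 11.5% were called), from 1.63 and 1.38 CPM to 3.29 and 14.6 CPM. The upper value is that of library 17, without which the change was 1.10 (adjusted p = 0.221).

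In the plasminogen system, whose activation Anxa2 promotes at the cell surface, 3 of 7 genes rose with CCl4 under ethanol and none fell, where 23.7% of all genes were called. Plat was 14.3, 15.1 and 16.2 CPM with CCl4 and 1.19, 2.77 and 1.06 CPM with OO, a rise of 3.10 ± 0.36 (adjusted p = 0.000204, edgeR). Plau, the urokinase gene, rose by 2.11 ± 0.31 and Plaur, its receptor, by 1.76 ± 0.36. Plat was also called under chow (2.59 ± 0.43, 1 of 7 against 2.19% of all genes). That change was 3.28 without library 12 (adjusted p = 0.0239), and the call was lost without library 5 (1.95, adjusted p = 0.314) or library 17 (2.09, adjusted p = 0.104). Plat and Plaur rose in CCl4 chow from day 0 to day 20 (1.87 ± 0.41 and 1.77 ± 0.46, 2 of 7 against 11.5%). Of the 15 list genes called in that comparison, over all lists, 14 lost their call when 1 of its 4 libraries was left out, and the 1 that did not was Ptgs1. Plat and Plau were called in CCl4 with ethanol against OO chow (2.97 ± 0.42 and 2.09 ± 0.35, 2 of 7 against 10.8%), and both remained called without library 12 (3.66 and 2.18).

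**Figure D4:**
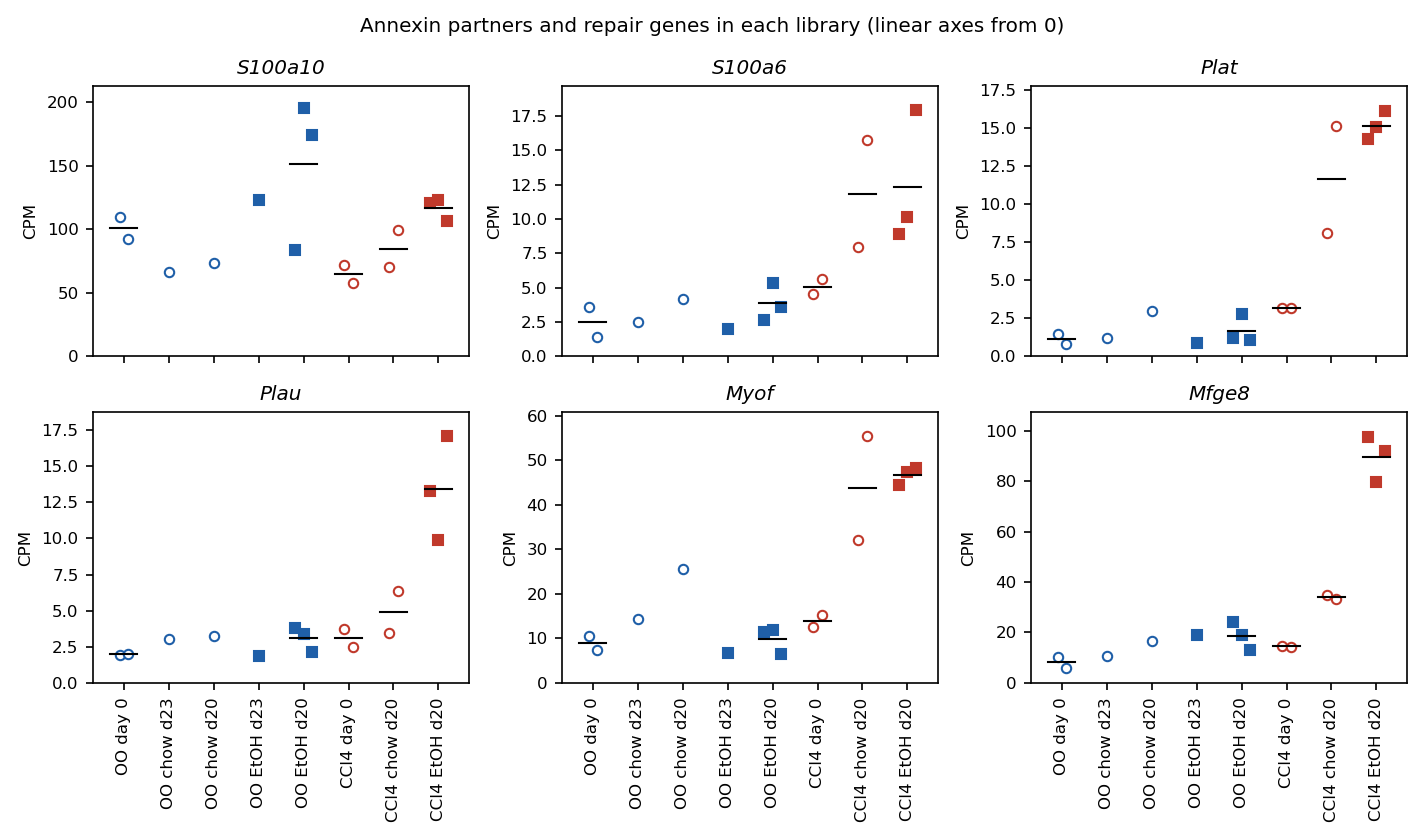
Level (vertical axes, TMM-scaled CPM, linear from 0) of the Anxa2 partner S100a10, S100a6, the plasminogen activators Plat and Plau, the repair gene Myof and Mfge8 in the 15 libraries by group, with the marks of the plot of annexin levels. S100a10 overlaps between CCl4 and OO under ethanol, and the other 5 genes do not.

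Of 17 membrane repair genes in the tables, 3 rose with CCl4 under ethanol and none fell, a share of the list below the background of 23.7%. They were Myof, the ferlin myoferlin, by 2.23 ± 0.26, Ahnak, a scaffold that binds the Anxa2 complex, by 1.23 ± 0.23, and Ehd2, a caveolar ATPase, by 1.10 ± 0.23. The median of the 17 was -0.14. Myof was 44.4, 47.2 and 48.2 CPM with CCl4 and 11.3, 11.9 and 6.38 CPM with OO. In CCl4 chow from day 0 to day 20 Myof and Ehd2 rose (1.66 ± 0.31 and 0.98 ± 0.28, 2 of 17), a share near the 11.5% of all genes called. Myof was also the 1 gene of the list to rise in CCl4 with ethanol against OO chow (1.29 ± 0.28), where 10.8% of all genes were called. It was 1.76 without library 12 (adjusted p = 0.0211), and its call was lost without library 5 (0.87, adjusted p = 0.229).

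Of 14 tested genes for the exposure and clearance of phosphatidylserine, the lipid that Anxa5 binds, 5 rose and 1 fell with CCl4 under ethanol, where 23.7% of all genes were called. Mfge8, a bridge between exposed phosphatidylserine and phagocyte integrins, was 97.6, 79.7 and 91.9 CPM with CCl4 and 24.3, 18.9 and 12.8 CPM with OO, a rise of 2.27 ± 0.23 (adjusted p = 9.94e-05, edgeR). The phagocytic receptor Mertk rose by 0.64 ± 0.10 and the scramblase Ano6 by 0.81 ± 0.15. The gene that fell was Timd4 (-1.26 ± 0.25, adjusted p = 0.00446, edgeR). Mfge8 was the 1 gene of the list to rise under chow (1.36 ± 0.28, against 2.19% of all genes), with 1.74 without library 12 (adjusted p = 0.0367). The call was lost without library 5 (1.04), 16 (1.33) or 17 (1.42). It also rose with ethanol in the CCl4 arm (1.40 ± 0.25), where Timd4, a phosphatidylserine receptor of resident macrophages, fell by 1.30 ± 0.27, against 1.27% of all genes. Neither call held without library 16, 18 or 20, where Mfge8 ranged from 1.33 to 1.43 and Timd4 from -1.50 to -0.68. Mfge8 was also lost without library 17 (1.39) and Timd4 without library 19 (-1.15). In OO liver ethanol was accompanied by lower Mertk (-0.61 ± 0.11) and Timd4 (-1.18 ± 0.26), 2 of 14 against 4.93% of all genes. Timd4 stood at 32.6 CPM in library 12 and 17.4 in library 5 with chow, and at 11.6, 9.76 and 10.3 CPM with ethanol. Mertk stood at 57.4 and 43.1 CPM in the same chow libraries and at 31.7, 34.7 and 31.1 CPM with ethanol, so library 12 was the highest for both. Without library 12 both calls were lost, with changes of -0.38 and -0.71 (adjusted p = 0.258 and 0.389). Mertk was also lost without library 15 (-0.58), and Timd4 without library 14 (-1.13) or 15 (-1.16). Summed macrophage markers, Timd4 among them, were 633 to 801 CPM with ethanol and 1019 to 1576 CPM with chow, with 4 of 7 lower, and their part in these differences was not tested. In CCl4 chow from day 0 to day 20, 5 of the 14 rose, against 11.5% of all genes. In order of adjusted p they were the receptor Axl at 1.21 ± 0.21, Ano6 at 0.92 ± 0.18, Mertk at 0.57 ± 0.13, Mfge8 at 1.24 ± 0.28 and Timd4 at 1.24 ± 0.31. Timd4 went from 4.38 and 4.85 CPM to 14.7 and 7.04 CPM, and without library 16 its change was 0.61. In OO liver Timd4 stood at 10.8 and 10.9 CPM at day 0, and both later chow libraries lay above the CCl4 chow ones. In CCl4 with ethanol against OO chow Mfge8 rose by 2.76 ± 0.27 and Plscr1, a phospholipid scramblase, by 0.61 ± 0.16, while Timd4 fell by 2.44 ± 0.27, 3 of 14 against 10.8% of all genes. Without library 12 Mfge8 and Timd4 remained called (3.14 and -1.93) and Plscr1 did not (0.72, adjusted p = 0.0663), nor did it without library 5, 18 or 20 (0.55 to 0.60). Plscr1 was the 1 gene of the list called at day 0, lower with CCl4 (-0.91 ± 0.17, against 2.06% of all genes), and that call was lost when any 1 of the 4 libraries was left out, with adjusted p from 0.0694 to 0.205 (edgeR).

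The 6 genes for annexin 1 receptors and the phospholipase A2 pathway gave no call in CCl4 against OO under ethanol by edgeR, and 2 had an unadjusted p under 0.05. In CCl4 chow from day 0 to day 20, where Anxa1 rose, 5 of the 6 rose, against 11.5% of all genes. Among them were Ptgs1, a cyclooxygenase, by 1.12 ± 0.15, and the formyl peptide receptors Fpr2 by 1.99 ± 0.42 and Fpr1 by 1.60 ± 0.35 (adjusted p = 0.00156, 0.0128 and 0.016, edgeR). Fpr2 was 0.689 and 1.29 CPM at day 0 and 2.63 and 4.98 CPM at day 20. Fpr1 was 3.32 and 2.77 CPM and then 9.29 and 9.36 CPM. Both calls were lost without library 3 or library 17. In OO liver Fpr1 stood at 7.25 and 8.70 CPM at day 0 and at 9.43 and 11.6 CPM later with chow. Fpr2 stood there at 1.84 and 1.52 CPM and then at 3.71 and 5.37 CPM. Over that time in OO chow all 6 genes also differed upward (median 0.80), and none was called, where 0.379% of all genes were.

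Reads given to genes that overlap the members were few: 0 to 4 counts for 1500015L24Rik at Anxa1, 0 to 7 for Mir3109 at Anxa2 and 0 for Mir7009 at Anxa5. Of the annexins outside the 9, Anxa9 and Anxa8 were tested and Anxa10 had 0 or 1 count in a library. Anxa9 rose in CCl4 against OO under ethanol by 0.64 ± 0.21 (adjusted p = 0.0495, edgeR), where 23.7% of all genes were called. It went from 3.67, 3.55 and 2.48 CPM to 5.40, 4.78 and 4.97 CPM. That call was lost without library 14, 15, 18, 19 or 20 (0.49 to 0.72) and with DESeq2 (0.65, adjusted p = 0.0953). Anxa9 was also called in CCl4 with ethanol against OO chow (0.838 ± 0.245), where 10.8% of all genes were called. The second call was lost without library 5, 12, 18, 19 or 20 (0.79 to 0.94) and with DESeq2 (0.86).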

How the data were processed

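The Illumina TruSeq mRNA kit was used for the liver libraries, per the labels' protocols. Raw counts per gene symbol were deposited, 1 table for each library. The authors aligned reads with GSNAP to mm10, and DESeq2 1.12.3 is also named, per the submitters' processing notes. How reads were counted, with which annotation and whether by strand, is not given in the sources used here. Reads aligned to more than 1 place (18.1% to 28.8% of reads) stood in 1 of 5 entries that name no gene, which were left out. Gene loci and exon lengths come from GENCODE M21. Replicate libraries differed beyond counting error, with a chi-square per degree of freedom of 3.93 to 78.4 over genes with at least 20 counts.

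Counts were scaled by TMM, filtered by filterByExpr and fitted with edgeR 4.0.16 (R 4.3.3), 1 mean per group, with 7 residual degrees of freedom. Groups with 1 library are assumed to vary like the others. Both OO chow libraries weigh equally. Alternatives were DESeq2 1.42.0, limma 3.58.1 voom with and without lane, RLE size factors, other filters, only the libraries compared, either OO chow library alone and each library left out. The pipeline was tested on simulated data.

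All 9 annexins are named. Up to 3 called genes per related list and comparison are named by adjusted p, and the 5 nearest genes by r (prior count 2). The phosphatidylserine list is an exception. All its called genes are named for CCl4 chow over time, and so is the gene that fell with CCl4 under ethanol. Members and lists were chosen with earlier results of these data known. Days were taken from the labels (20 or 23), although table names say 28D.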

Additional observations from a re-analysis of the deposited data

Results flagged for a closer look

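Library 6, the single OO ethanol library of day 23, enters no comparison of the report. Anxa6 stood there at 219.9 CPM, Anxa7 at 145.3 CPM and Anxa4 at 57.94 CPM, each above both OO chow libraries. Against library 5, the OO chow library of the same day, the log2 ratios were 0.62, 0.40 and 0.34. With 1 library on each side these differences have no replicate check. Library 6 also held exocrine pancreas markers at 158 CPM, and their part in these values was not tested. Anxa1 and Anxa2 had log2 ratios of -0.48 and -0.27 in the same pair.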

How the results depend on the processing

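Of 1080 annexin values recomputed, 1023 kept their direction and their side of the threshold or had no call in either setting, 32 lost a call, 25 gained one, and no called value reversed. Among 860 values called in neither setting, 65 changed sign. The count of called annexins in CCl4 against OO under ethanol did not move by over 1.5 times under any alternative. With only the libraries compared in the fit, the count was 4 at day 0, 0 for ethanol in OO, 4 for CCl4 under chow and 1 for later OO chow against day 0. DESeq2 gave 2 for ethanol in OO and 4 for CCl4 under chow. For CCl4 under chow, RLE size factors gave 2, no filter 3, the filter of 1 CPM in 2 libraries 2, limma-voom with lane as a block 0 and library 12 alone as control 0. The day 23 chow library alone gave 0 for ethanol in OO, and the day 20 one gave 1 for CCl4 with ethanol against OO chow. Leaving out 1 library at a time gave 0 (without library 12) to 3 (without library 13) for ethanol in OO, 0 (without library 5 or 17) to 3 (without library 16) for CCl4 under chow, 1 (without library 5) to 5 for CCl4 with ethanol against OO chow and 0 to 3 for CCl4 chow from day 0 to day 20. The cause of these shifts was not tested. Fewer libraries leave fewer degrees of freedom, and the part of that in these shifts was not tested either.

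Counts over all genes moved as well. Over all settings they ran from 52 to 2240 at day 0 (304 as reported), 24 to 1829 for ethanol in OO (728), 49 to 412 for ethanol in CCl4 (187), 2223 to 3981 for CCl4 under ethanol (3509), 27 to 987 for CCl4 under chow (324), 403 to 1865 for CCl4 with ethanol against OO chow (1594), 2 to 148 for the interaction (21), 262 to 2355 for CCl4 chow over time (1694) and 4 to 834 for OO chow over time (56). For the related genes named in the text, the same alternatives were applied after the data were seen: of 681 values 123 lost a call, 6 gained one and none reversed. No paired analysis was possible because the groups share no replicate numbers. The correlation within lanes was -0.08. Apart from the interaction, only CCl4 under chow and CCl4 with ethanol against OO chow had a lane with libraries of both sides. Anxa13, with 7 to 38 counts, is limited by depth.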
